A study of Homo sapiens with 6 samples.

Results

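The COP9 signalosome is described here through the transcripts of 9 subunit genes, GPS1, COPS2, COPS3, COPS4, COPS5, COPS6, COPS7A, COPS7B and COPS8. All probe sets whose platform annotation names 1 of these genes and no other were taken, which gave 19 probe sets of the 41091 with 1 gene. All 9 genes were among the 11131 of 19775 named genes that passed a filter on low values. Gene expression was measured on 6 arrays in PC3, an established human prostate cancer cell line grown with 10% serum, 72 h after transfection with a pool of siRNAs against NRP2, a pool against VEGFC, or scrambled siRNA, with 2 arrays a group. The sample labels name different suppliers for the NRP-2 and VEGF-C pools, so the target and the supplier changed together, and each target had 1 pool. Whether the arrays of a group stand for independent cultures is not stated, and the p-values then speak of array-to-array spread alone, which may be technical. NRP2 encodes a co-receptor for VEGF-C, the lymphatic growth factor that VEGFC encodes, and the title of the series names autophagy as the process under study.

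The COP9 signalosome is a protein complex of the nucleus and cytoplasm that removes the ubiquitin-like protein NEDD8 from cullins, the scaffolds of the cullin-RING ubiquitin ligases. Removing NEDD8 stops the ligase and lets the exchange factor CAND1 swap its substrate receptor, so the cycle of adding and removing NEDD8 decides which proteins the ligases mark. COPS5 carries the metalloprotease centre of JAMM type that cuts NEDD8 off, COPS6 is its inactive partner of the same fold, and GPS1, COPS2, COPS3, COPS4, COPS7A or COPS7B, and COPS8 have the PCI fold that also builds the lid of the proteasome and the translation factor eIF3. COPS4 touches the COPS5 and COPS6 pair and is known for its part in switching on the protease when a neddylated ligase binds. COPS7A and COPS7B are paralogs that take the same place in alternative forms of the complex.

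COPS4 was lower with NRP-2 siRNA on both arrays, with a mean 2.76-fold below scrambled siRNA. The NRP-2 group means of the other 8 subunits lay within 0.44 of their scrambled means on the log2 scale. With VEGF-C siRNA none of the 9 subunits passed limma's adjusted threshold, and neither did any of the 11131 genes (0%). VEGFC itself, 15.4-fold lower with its own siRNA, had an adjusted p of 0.204 by limma, so a missed threshold says nothing particular about the subunits. The family was chosen by the NRP-2 arrays, because COPS4 ranked 2 by unadjusted p among the 5363 genes that were lower with NRP-2 siRNA than with scrambled siRNA. All subunit values with NRP-2 siRNA are therefore given as a description, with no p, and the comparison of VEGF-C with scrambled siRNA, which did not choose the family but shares the scrambled arrays, is the one that is tested.

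The values are the authors' log2 values per probe set, and for each gene the brightest probe set was used if its mean over the 6 arrays reached log2 4. Array medians over all probe sets spanned 0.0702. Each targeted transcript was lower with its own siRNA. NRP2 stood at log2 3.41 and 2.81 with NRP-2 siRNA and at 4.77 and 4.92 with scrambled siRNA. Its values with NRP-2 siRNA were dim, as the median probe set stood at 3.01 on NRP-2 array 1 and 3.04 on array 2. NRP2 was higher on the VEGF-C arrays, at 5.51 and 6.01, a difference from scrambled siRNA of +0.91 (SE 0.26). For this difference limma gave an unadjusted p of 0.0157 and an adjusted p of 0.257. VEGFC stood at 8.46 and 7.27 with VEGF-C siRNA and at 11.81 and 11.80 with scrambled siRNA. Its values on the NRP-2 arrays were 11.99 and 11.67. The epithelial markers KRT8, KRT18, CDH1 and EPCAM lay between 11.74 and 14.80 on all arrays. The leukocyte marker PTPRC and the glial marker GFAP lay between 2.11 and 3.30, near or below the array medians. The endothelial marker PECAM1 (9.17 to 10.93) and the fibroblast marker COL3A1 (7.04 to 8.75) were well above them. Of the luminal prostate genes, KLK3 lay between 6.26 and 6.87. TMPRSS2 stood at 7.02 and 8.28 with NRP-2 siRNA, at 8.66 and 8.67 with VEGF-C siRNA, and at 9.18 and 9.25 with scrambled siRNA, a difference of -1.57 (SE 0.40) for NRP-2 siRNA, and its part in the COPS4 value was not tested. The mean of 19 measured genes of G2 and mitosis varied more between arrays of a group than any subunit did, with log2 10.94 and 9.91 on the NRP-2 arrays, 11.12 and 10.37 on the VEGF-C arrays and 10.23 and 8.59 on the scrambled arrays. All 19 had a higher mean with each targeting siRNA than with scrambled siRNA, with a median difference of +0.98 for NRP-2 and +1.31 for VEGF-C siRNA. Of all genes 51.8% were above 0 for NRP-2 and 49.3% for VEGF-C siRNA. The 19 were higher on array 1 than on array 2 in every group, so they are not separate observations. Their mean on scrambled array 1 (10.23) lay above that on NRP-2 array 2 (9.91), and scrambled array 2 (8.59) was the lowest array. Limma's unadjusted p was under 0.05 for 3 of the 19 in the VEGF-C comparison, where it was for 14.8% of all genes. In the NRP-2 comparison it was for 0 of the 19, where it was for 13.3% of all genes. With so few genes, which moved together, nothing is read from these counts.

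The 250 bases before the RefSeq start of COPS4 are shown beside those of COPS6, the subunit whose level differed least between arrays, and of COPS2, a PCI subunit, so that the upstream sequence of the gene with the low value can be read against others of the complex. They lie at chr4:83034933-83035182 (plus strand), chr7:100088719-100088968 (plus strand) and chr15:49155600-49155849 (minus strand) of GRCh38.p14, and capitals mark 3 motifs on either strand, CCAAT for NF-Y, GGGCGG for the SP family and CCGGAA for the ETS family.
COPS4: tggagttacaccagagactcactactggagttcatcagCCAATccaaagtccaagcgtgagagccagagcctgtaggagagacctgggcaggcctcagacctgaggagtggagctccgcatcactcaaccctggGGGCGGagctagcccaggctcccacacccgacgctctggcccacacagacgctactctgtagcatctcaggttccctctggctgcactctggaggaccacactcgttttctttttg
COPS6: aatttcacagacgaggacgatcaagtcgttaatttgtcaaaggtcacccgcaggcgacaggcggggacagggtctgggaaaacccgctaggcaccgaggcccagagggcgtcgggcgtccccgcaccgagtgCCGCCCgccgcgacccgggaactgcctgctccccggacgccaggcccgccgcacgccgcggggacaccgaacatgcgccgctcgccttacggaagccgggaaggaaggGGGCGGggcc
COPS2: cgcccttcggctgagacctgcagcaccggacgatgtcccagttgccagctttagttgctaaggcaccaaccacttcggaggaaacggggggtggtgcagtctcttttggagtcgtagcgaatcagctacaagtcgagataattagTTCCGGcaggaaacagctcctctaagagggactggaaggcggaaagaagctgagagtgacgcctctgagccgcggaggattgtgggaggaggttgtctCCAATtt
COPS4 held 1 CCAAT and 1 GGGCGG and no CCGGAA. COPS6 held 2 GGGCGG, and COPS2 held 1 CCAAT and 1 CCGGAA. The RefSeq table had 13 start windows for 8 of the 9 genes, and COPS5 was not among them. CCGGAA was in 6 of the 13 windows (46.2%), against 14.5% of all 35116 windows of that length, and among the genes it was missing in COPS4 and COPS6. GGGCGG was in 8 of 13 (61.5%, against 42.6%) and CCAAT in 5 of 13 (38.5%, against 32% of all windows). The COPS4 window held 7 CpG dinucleotides, the lowest number of the 13, where COPS6 held 32, COPS2 14 and the median window of all genes 11. A number of 7 or fewer is common, as 43.7% of all 35116 windows had it. The arrays did not measure binding or methylation at these windows.

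COPS4 stood at log2 10.16 and 10.41 with NRP-2 siRNA, at 11.51 and 11.81 with VEGF-C siRNA, and at 11.74 and 11.76 with scrambled siRNA. Both NRP-2 arrays lay below all other arrays. In such bulk RNA, fewer cells with the transcript and less of it per cell cannot be told apart. The difference of means from scrambled siRNA was -1.47 (SE 0.16), and 44 of the 11131 genes were as low or lower in that comparison. From VEGF-C siRNA the difference was -1.37 (SE 0.16), a 2.59-fold lower level, and 63 genes were as low or lower. These comparisons share the NRP-2 arrays. COPS4 has a second probe set, 237649_at, that lay between 3.06 and 3.27 on all 6 arrays, near the array medians, with differences from scrambled siRNA of -0.03 for NRP-2 and -0.05 for VEGF-C siRNA. The low COPS4 value therefore rests on the single probe set 218042_at, and the mean of both probe sets was 0.75 lower than with scrambled siRNA.

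**Figure D1:**
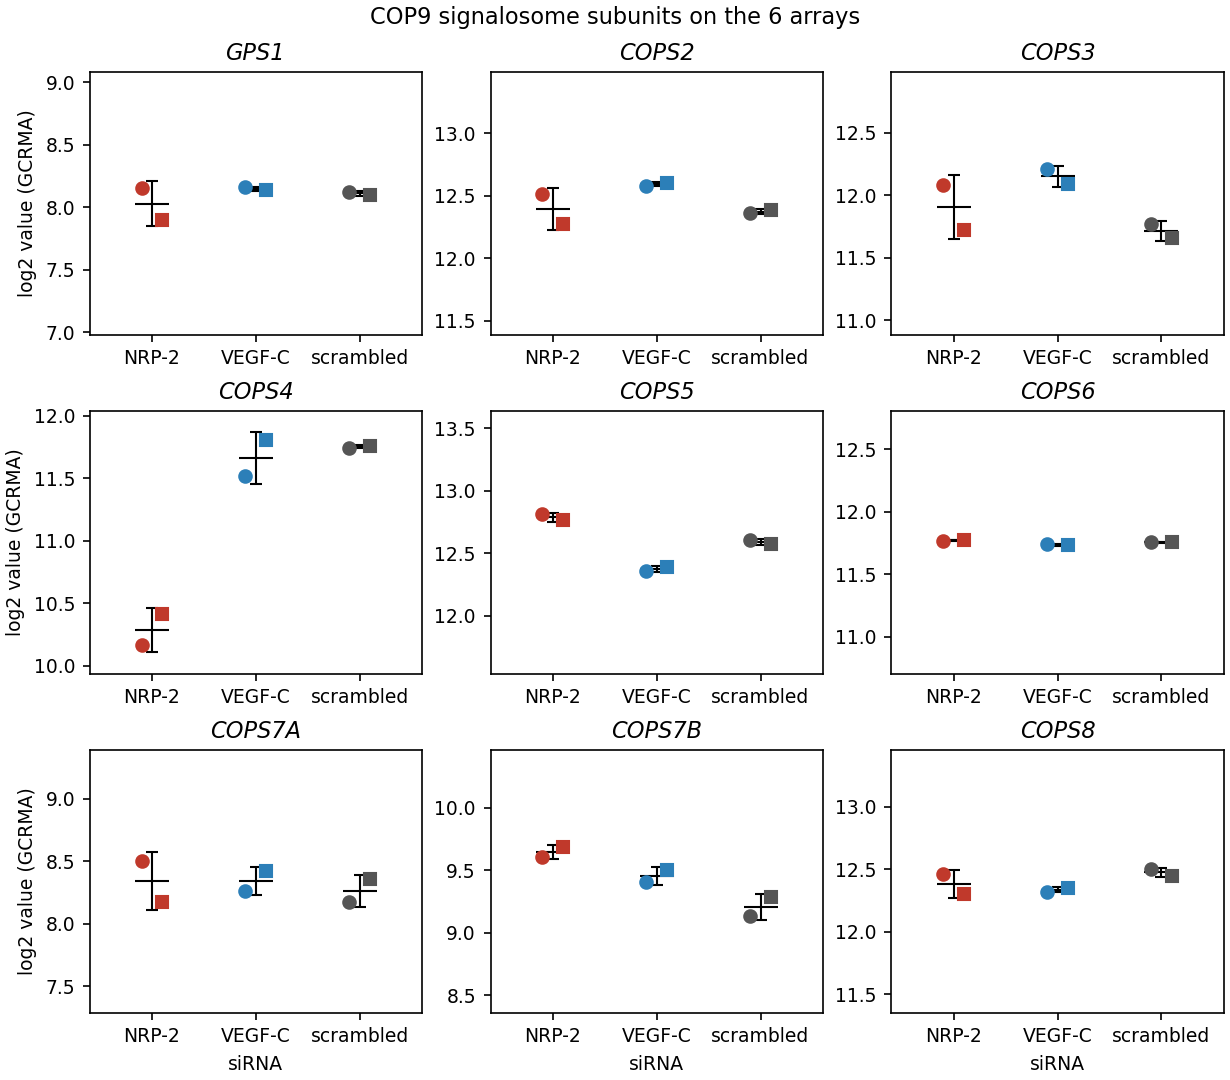
Log2 values (vertical axes, each spanning 2.1) of the 9 subunits by siRNA group; circles are array 1, squares array 2, and the bar and whiskers are the mean and SD of 2 arrays. COPS4 lies at 10.16 and 10.41 with NRP-2 siRNA, below its other 4 arrays, and no other subunit has a gap of that size.

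Neither subunit with the metalloprotease fold was lower with NRP-2 siRNA. COPS5, the protease, stood at 12.82 and 12.76 with NRP-2 siRNA, at 12.36 and 12.39 with VEGF-C siRNA, and at 12.61 and 12.58 with scrambled siRNA. The 3 groups did not overlap, with NRP-2 highest and VEGF-C lowest, and the SD between arrays of a group was 0.03. Against scrambled siRNA COPS5 was at +0.20 (SE 0.11) with NRP-2 siRNA and at -0.22 (SE 0.11) with VEGF-C siRNA, where limma's unadjusted p was 0.106 and the adjusted p 0.421. The SE of limma is wider than the spread of these arrays because it draws on the variances of all genes. COPS6, the inactive partner, lay between 11.73 and 11.77 on all 6 arrays, the narrowest range of the family. Its differences from scrambled siRNA were +0.01 with NRP-2 and -0.02 with VEGF-C siRNA, and its dimmer probe set gave -0.02 and +0.10.

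Among the PCI subunits other than COPS4, COPS7B was the one that stood farthest from scrambled siRNA in the NRP-2 arrays. It stood at 9.61 and 9.69 with NRP-2 siRNA, at 9.40 and 9.51 with VEGF-C siRNA, and at 9.14 and 9.28 with scrambled siRNA. The groups did not overlap, and NRP-2 siRNA was highest. The difference from scrambled siRNA was +0.44 (SE 0.13) with NRP-2 siRNA and +0.25 (SE 0.13, limma's adjusted p = 0.416) with VEGF-C siRNA. A second COPS7B probe set gave +0.45 for NRP-2 and -0.13 for VEGF-C siRNA, so the probe sets differed in sign for VEGF-C. That probe set stood at 6.68 and 5.97 with NRP-2 siRNA and at 5.81 and 5.93 with scrambled siRNA, and without NRP-2 array 1 its difference was +0.10. The paralog COPS7A stood at 8.50 and 8.18 with NRP-2 siRNA, at 8.26 and 8.42 with VEGF-C siRNA, and at 8.17 and 8.36 with scrambled siRNA. Its groups overlapped in every comparison, and its differences from scrambled siRNA were +0.08 with NRP-2 and +0.08 with VEGF-C siRNA (SE 0.17 each).

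COPS3 was the subunit farthest from scrambled siRNA in the VEGF-C arrays. It stood at 12.08 and 11.72 with NRP-2 siRNA, at 12.21 and 12.09 with VEGF-C siRNA, and at 11.77 and 11.66 with scrambled siRNA. With VEGF-C siRNA it was at +0.44 (SE 0.16, 95% interval 0.03 to 0.85), with an unadjusted p of 0.0399 and an adjusted p of 0.322 over all genes, so it did not pass the threshold. With NRP-2 siRNA it was at +0.19 (SE 0.16), and those arrays overlapped the scrambled ones. In each group array 1 had both the higher COPS3 and the higher mean of G2 and mitosis genes. With that mean as a covariate COPS3 was at +0.24 (SE 0.21) with VEGF-C siRNA. The mean was itself higher on the VEGF-C than on the scrambled arrays, so this fit cannot separate it from the siRNA. The part of the cell cycle in the COPS3 value was not tested.

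COPS2, which takes part in holding the cullin, stood at 12.51 and 12.27 with NRP-2 siRNA, at 12.58 and 12.60 with VEGF-C siRNA, and at 12.36 and 12.39 with scrambled siRNA. The NRP-2 arrays lay on both sides of the scrambled ones (+0.02, SE 0.13), and the VEGF-C arrays lay above them (+0.22, SE 0.13, limma's adjusted p = 0.481). Its dimmer probe set gave -0.10 with NRP-2 and -0.14 with VEGF-C siRNA, so the sign for VEGF-C again depended on the probe set. On that probe set both VEGF-C arrays (8.90 and 8.91) lay between the scrambled arrays (9.29 and 8.80). GPS1, the subunit also called CSN1, stood at 8.16 and 7.90 with NRP-2 siRNA, at 8.16 and 8.13 with VEGF-C siRNA, and at 8.12 and 8.10 with scrambled siRNA. It differed from scrambled siRNA by -0.08 with NRP-2 and +0.04 with VEGF-C siRNA (SE 0.14 each). COPS8 stood at 12.46 and 12.30 with NRP-2 siRNA, at 12.32 and 12.35 with VEGF-C siRNA, and at 12.50 and 12.45 with scrambled siRNA. Its differences were -0.09 with NRP-2 and -0.14 with VEGF-C siRNA (SE 0.12 each), and it is the subunit with the most probe sets. Of its 6 probe sets 5 passed the filter, 4 of which gave -0.17 to -0.08 with NRP-2 siRNA, while the fifth, 236204_at, gave +0.34 and was high on NRP-2 array 2 only.

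**Figure D2:**
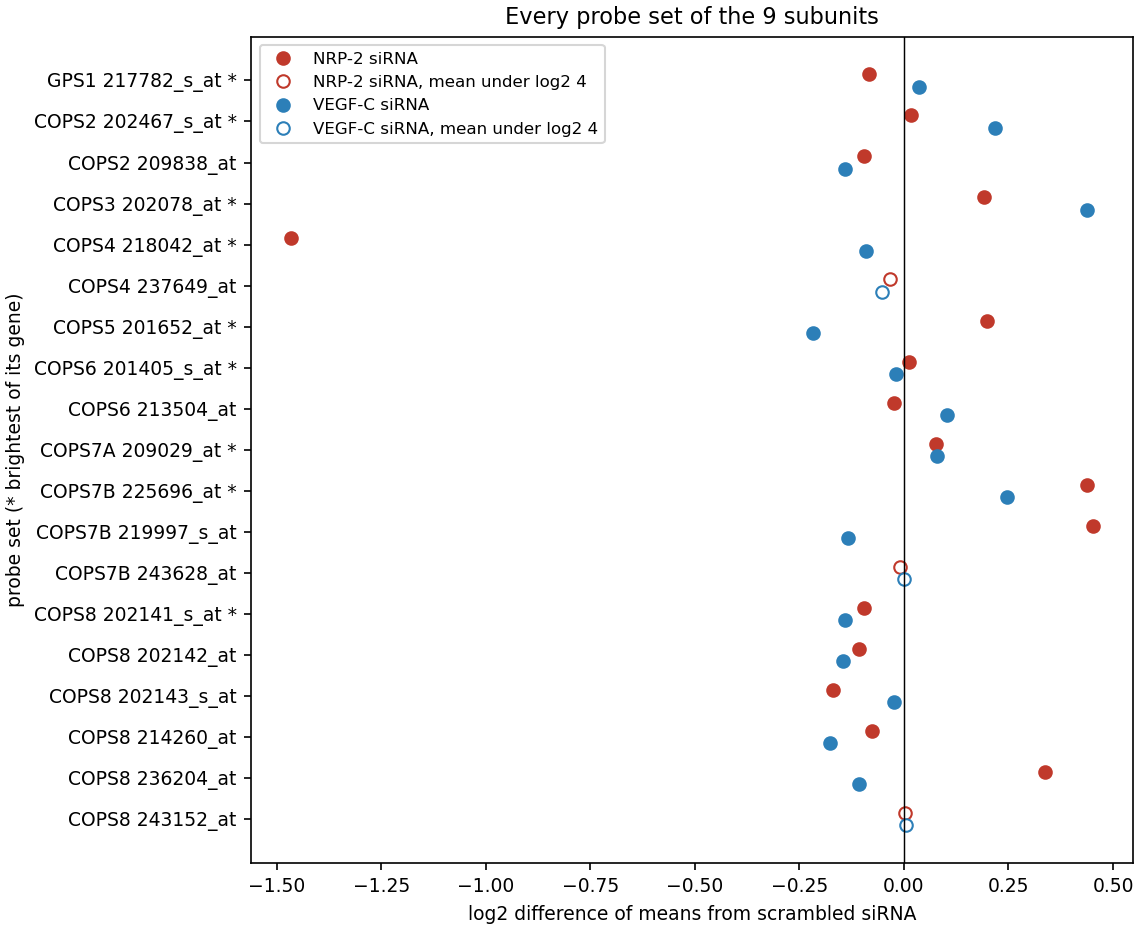
Log2 difference of means from scrambled siRNA (horizontal axis) for all 19 probe sets of the subunits, with NRP-2 siRNA in red and VEGF-C siRNA in blue; open circles mark the 3 probe sets with a mean under log2 4. The bright COPS4 probe set lies at -1.47 with NRP-2 siRNA and its dim one at -0.03, and all others lie between -0.22 and +0.45.

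The contrast between COPS4 and the rest of the complex was visible on each NRP-2 array. Taken as a deviation from the scrambled mean, COPS4 was at -1.59 and -1.34 on the NRP-2 arrays, at -0.24 and +0.05 on the VEGF-C arrays and at -0.01 and +0.01 on the scrambled arrays. The median of the other 8 subunits was at +0.18 and -0.04 on the NRP-2 arrays, at +0.02 and +0.09 on the VEGF-C arrays and at +0.01 and -0.01 on the scrambled arrays. COPS4 minus that median was -1.77 and -1.30 on the NRP-2 arrays, and -0.26 and -0.04 on the VEGF-C arrays. The lowest of the other 8 was at -0.01 on NRP-2 array 1 and at -0.21 on NRP-2 array 2. With 2 arrays a group no exact permutation test of such a difference can reach 0.05, and COPS4 was chosen for it, so none was run.

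Against all genes, 1 of 9 subunits, COPS4, was lower by at least 1 on the log2 scale with NRP-2 siRNA, the difference it was chosen for, and 1.45% of the 11131 genes were. None of the other 8 reached 0.5 in either direction, a size that 16.2% of all genes reached. Differences at least as large as the +0.44 of COPS7B were found for 20.5% of all genes, and at least as large as the +0.20 of COPS5 for 50.3%. The median of the other 8 was +0.05, with 6 above 0 and 2 below, where 51.8% of all genes were above 0 and their median was +0.01. Without NRP-2 array 1 the count was 4 above and 4 below, with GPS1 at -0.21, COPS2 at -0.10, COPS7A at -0.09 and COPS8 at -0.18. The NRP-2 and scrambled arrays did not overlap for 4 of the 9 subunits. COPS4 was lower, as 24.4% of all genes were without overlap, and COPS5, COPS6 and COPS7B were higher, as 25.3% were. At an adjusted p under 0.05 limma called 0 genes in this comparison (0%), while 1478 were under 0.05 before adjustment (13.3%).

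With VEGF-C siRNA 0 of 9 subunits passed limma's adjusted threshold, and 0 of all 11131 genes did (0%). Before adjustment, 1 subunit of 9, COPS3, had p under 0.05, and so had 1642 genes of all (14.8%). None of the 9 differed by 0.5 or more, as 16.5% of all genes did. The arrays did not overlap for 7 of 9 subunits. GPS1, COPS2, COPS3 and COPS7B were higher, as 26.8% of all genes were, and COPS5, COPS6 and COPS8 were lower, as 26.6% were. COPS4 and COPS7A were the 2 whose arrays overlapped. The difference of COPS4 was -0.09 (SE 0.16, 95% interval -0.49 to 0.31, adjusted p = 0.819 by limma), and 74.0% of all genes differed by at least as much. The median of the other 8 was +0.06, with 5 above 0 and 3 below, and the median of all genes was -0.004.

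Between the 2 targeting siRNAs, COPS4 was the subunit farthest from 0. The comparison uses the NRP-2 arrays that chose COPS4, so this is not a second finding. Of the 9 subunits 1, COPS4, was lower with NRP-2 than with VEGF-C siRNA by at least 1, and 1.64% of all genes were. COPS5 was 1.33-fold higher with NRP-2 siRNA (+0.41, SE 0.11), and COPS3 was at -0.25 and COPS2 at -0.20. The other 8 had a median of +0.02 with 4 on each side of 0. The arrays of these groups did not overlap for 6 of 9 subunits. COPS2, COPS3 and COPS4 were lower, as 22.4% of all genes were, and COPS5, COPS6 and COPS7B were higher, as 24.1% were. Here too limma called 0 genes at an adjusted p under 0.05 (0%), with 2026 below 0.05 before adjustment (18.2%).

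**Figure D3:**
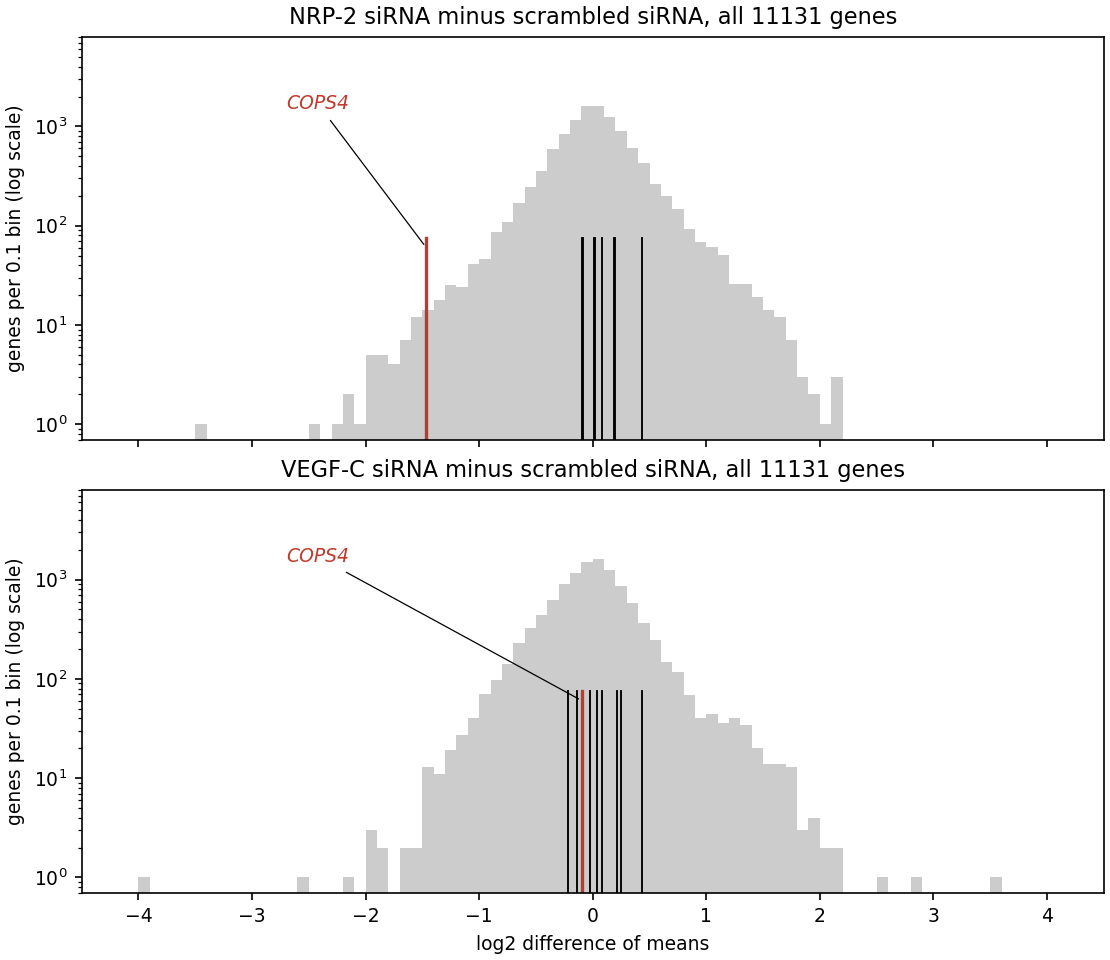
Number of genes (log scale) by log2 difference of means from scrambled siRNA, for NRP-2 siRNA above and VEGF-C siRNA below, over 11131 genes; black lines mark the subunits and the red line COPS4. With NRP-2 siRNA COPS4 lies at -1.47 in the lower tail, and with VEGF-C siRNA at -0.09 among the others.

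The genes whose values over the 6 arrays lay closest to those of COPS4, by Euclidean distance of log2 deviations from their own means, were ELOVL7, a fatty acid elongase (distance 0.190, Pearson r = 0.994), RALA, a Ras-like GTPase (0.293, r = 0.987), the antisense RNA gene GAS6-AS1 (0.339, r = 0.980), HMGN1, a nucleosome-binding protein (0.350, r = 0.979), and ARIH2OS (0.352, r = 0.978). Their differences from scrambled siRNA ran from -1.43 to -1.36 with NRP-2 siRNA and from -0.25 to +0.15 with VEGF-C siRNA, a likeness to COPS4 that follows from the choice by distance. None is a subunit. The closest subunit was GPS1, with 3143 of 11130 genes at the same or a smaller distance, and the farthest was COPS7B, with 8689. Over the 6 arrays the Pearson r with COPS4 was -0.81 for COPS5, -0.78 for COPS7B and -0.72 for COPS6, and between -0.18 and 0.41 for the other 5. These r values rest on 6 arrays in 3 groups that share the same normalization and are given as a description. They lean on the NRP-2 arrays, for which COPS4 was chosen, and r does not show size. COPS6 ranged only from 11.73 to 11.77. GAS6-AS1 and ARIH2OS are named for lying opposite other genes, so which transcript their probe sets measured is uncertain. ARIH2OS stood at 3.19 and 3.86 with NRP-2 siRNA, below the filter level of log2 4.

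**Figure D4:**
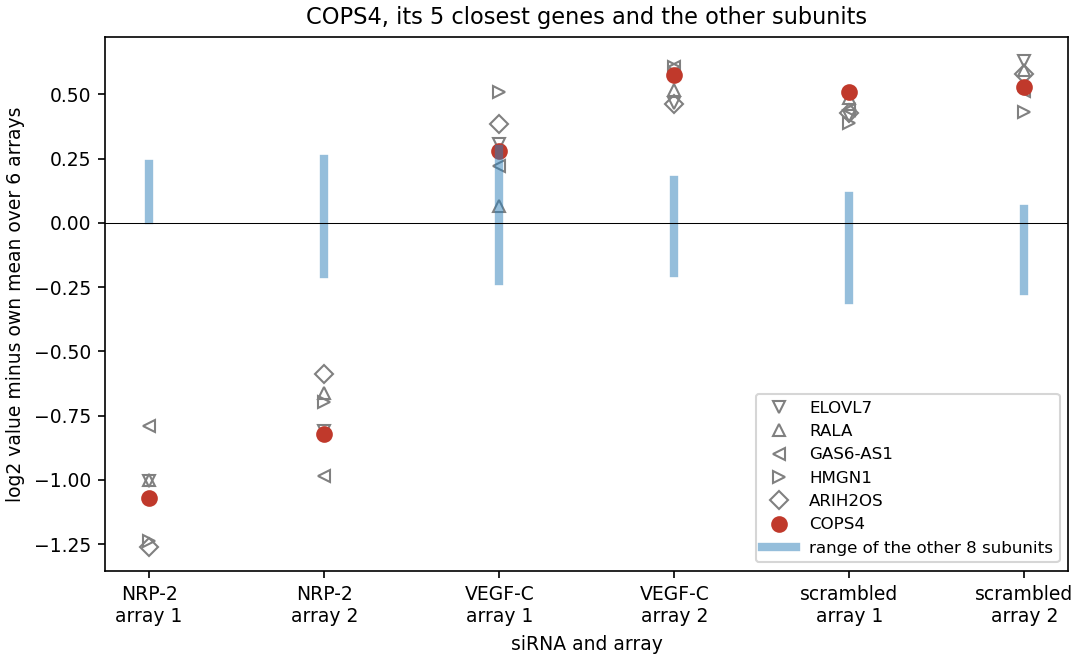
Log2 value minus the own mean of each gene over 6 arrays (vertical axis) by array; red circles are COPS4, grey symbols its 5 closest genes, and blue bars the range of the other 8 subunits. The 5 genes, chosen for their closeness to COPS4 on these arrays, and COPS4 are low on both NRP-2 arrays, where the subunit bars stay near 0.

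The genes next to COPS4 in the RefSeq order were looked at for a shared shift. LIN54, a subunit of the DREAM complex on 1 side, stood at 4.15 and 3.86 with NRP-2 siRNA and at 4.03 and 3.94 with scrambled siRNA (+0.02, SE 0.22), close to the filter. PLAC8, on the other side, stood at 10.92 and 9.62 with NRP-2 siRNA, at 11.24 and 11.59 with VEGF-C siRNA, and at 11.58 and 10.68 with scrambled siRNA. Its NRP-2 and scrambled arrays overlapped (-0.86, SE 0.50), while both NRP-2 arrays lay below both VEGF-C arrays (-1.15, SE 0.50). The other 2 neighbours by the rule, RNU6-615P and LOC124900167, had no named probe set.

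The wider pathway was described through 8 lists with 96 genes, 90 of them measured. With NRP-2 siRNA 0 of these 90 were lower by at least 1, where 1.45% of all genes were, and 2 were higher by at least 1, where 2.02% were. Both belong to the replication licensing pathway of the ligase CRL4: DTL, the receptor that brings CDT1 to the ligase, at +1.86 (SE 0.78), and CDT1 itself at +1.53 (SE 0.64). DTL stood at 11.57 and 9.78 with NRP-2 siRNA and at 8.87 and 8.77 with scrambled siRNA, and CDT1 at 9.67 and 7.90 with NRP-2 siRNA and at 7.44 and 7.07 with scrambled siRNA. Without NRP-2 array 1 the differences were +0.96 for DTL and +0.64 for CDT1. For both genes NRP-2 array 1 was far above array 2, and the mean of G2 and mitosis genes was also higher there (10.94 against 9.91). The part of the cell cycle in these values was not tested.

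The scaffolds and enzymes around the signalosome are given next. Of the 10 cullin and RING genes, none reached 0.5 with NRP-2 siRNA, as 16.2% of all genes did, with RNF7 at +0.21, RBX1 at +0.21 and CUL5 at -0.29, and the list had a median of -0.002. Of the 13 measured genes of the NEDD8 cycle and of cullin exchange none reached 0.5 either, and with so few genes nothing is read from these counts. They include the NEDD8 ligase factors DCUN1D4 at +0.36, DCUN1D1 at +0.34 and DCUN1D3 at -0.25 (median +0.03). Among 22 adaptors and receptors, KLHL13, a CUL3 adaptor, was at +0.55 and DDB2, a receptor for damaged DNA, at +0.75 besides DTL (median +0.02). DDB2 stood at 8.40 and 7.31 with NRP-2 siRNA and at 6.96 and 7.24 with scrambled siRNA, and without NRP-2 array 1 its difference was +0.21. Of the 9 measured partners of the complex, DET1 was at +0.77, the kinase subunit CSNK2A1 at -0.38 and COPS9, the small acidic subunit that is not among the 9, at +0.33 (median +0.13). COPS9 stood at 13.10 and 12.71 with NRP-2 siRNA and at 12.63 and 12.52 with scrambled siRNA, and did not share the low value of COPS4.

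The complexes built on the same fold gave a setting for the family. The 7 measured genes of the proteasome lid ran from -0.07 to +0.50 with NRP-2 siRNA, with PSMD14, its JAMM protease, at +0.50, PSMD6 at +0.17 and PSMD11 at +0.17 (median +0.11). The 12 measured genes of eIF3 ran from -0.42 to +0.12, with EIF3A at -0.42, EIF3L at -0.29 and EIF3M at -0.17 (median -0.10). COPS4 was chosen for its low value and the genes of these lists were not, so its distance is not set against theirs. Of the 5 other JAMM proteases BRCC3 was at -0.66, STAMBPL1 at +0.65 and MPND at -0.21. Among 12 genes whose proteins are ligase substrates, NFKBIA, the inhibitor of NF-kB, was at +0.77 and CTNNB1, beta-catenin, at +0.70 besides CDT1 (median +0.31).

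With VEGF-C siRNA 0 of the 90 genes passed limma's adjusted threshold, and 12 were under 0.05 before adjustment, of which 8 were higher and 4 lower. These are 13.3% of the 90, where the share of all genes was 14.8%. Of the 12 measured ligase substrates 4 had such a p, all higher, where 14.8% of all genes had one in either direction. With so few genes nothing is read from this count. The 4 were CTNNB1 at +0.63, MYC at +0.85, KMT5A at +0.47 and the antioxidant regulator NFE2L2 at +0.32. Their adjusted p by limma ran from 0.231 to 0.323. The NEDD8-activating enzyme subunit UBA3 was at -0.31, CUL5 at -0.41, and the paralogous receptors BTRC at -0.43 and FBXW11 at -0.36. The partners ITPK1 and DET1 were at +0.45 and +0.54, PSMD14 at +0.51 and EIF3J at +0.43. Other genes taken by the naming rule without a p under 0.05 were CSNK2B (+0.22), DCUN1D5 (+0.30), NUB1 (+0.48), CUL4A (-0.30), CUL3 (-0.24), KLHL9 (-0.34), PSMD11 (+0.32), PSMD3 (+0.22), EIF3L (-0.25), EIF3H (-0.15), STAMBPL1 (+0.34), MPND (-0.28) and MYSM1 (-0.42).

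**Figure D5:**
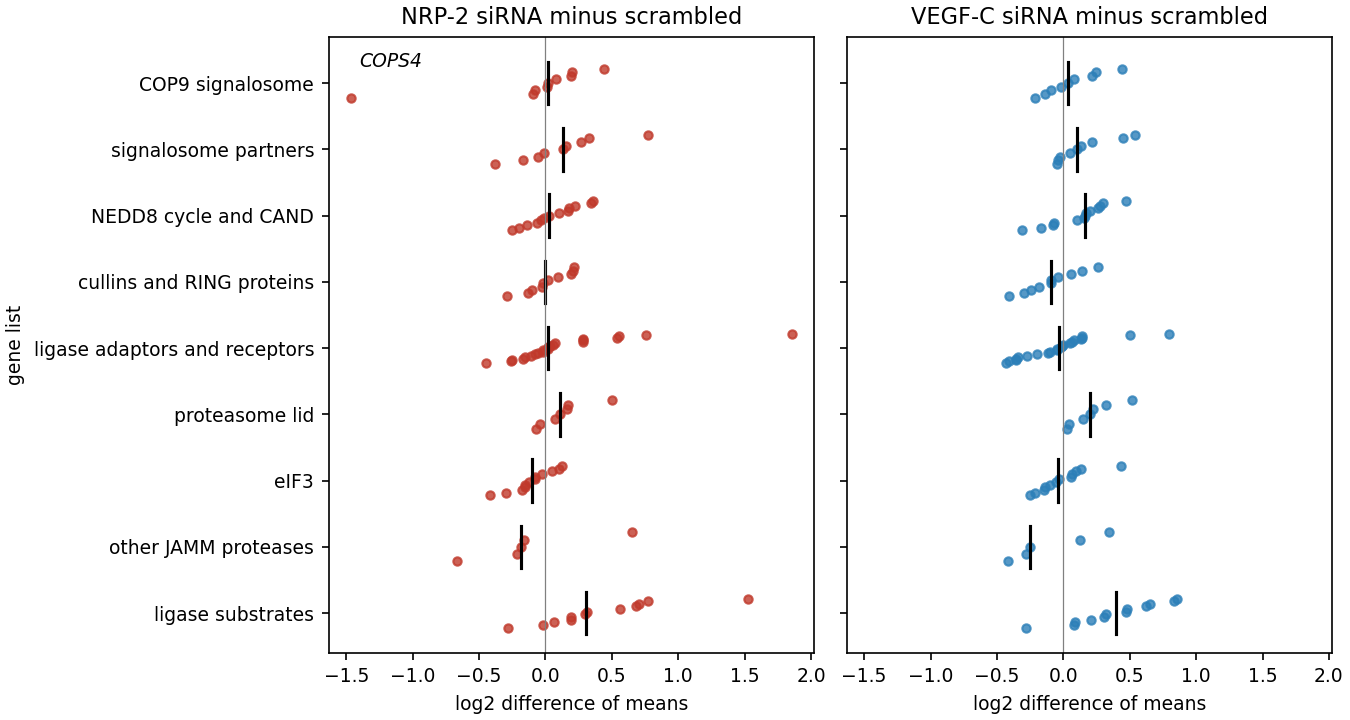
Log2 difference of means from scrambled siRNA (horizontal axis) for the measured genes of 9 lists, with NRP-2 siRNA left and VEGF-C siRNA right; each point is a gene and the black bar the list median. COPS4, which was chosen for its low value on the NRP-2 arrays, is marked at -1.47 in the NRP-2 panel, and DTL lies at +1.86.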

How the data were processed

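Total RNA of PC3 cells was measured on 6 HG-U133 Plus 2.0 arrays of Affymetrix, 2 in each of 3 groups taken from the sample titles. Values were used as the authors deposited them, on a log2 scale. The submitters' processing notes name Partek and GCRMA, without version or settings. GCRMA corrects background by probe sequence and normalizes the arrays to each other, and compresses values near the floor, so fold changes of dim probe sets are understated. Precision is limited by how few arrays there are.

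The array has 54675 probe sets, 62 of them controls. By the 2016 annotation of the platform 41091 name 1 gene, 1801 name more and 11721 name none (0 symbols changed through Entrez identifiers). Those with 1 gene whose mean reached log2 4, 19946 in all, gave 11131 genes, each represented by its brightest probe set. Of the 19 subunit probe sets 16 passed, and all 9 subunits were measured. All 6 arrays entered 1 two-sided fit by lmFit and eBayes in limma 3.58.1 and R 4.3.3 (residual degrees of freedom 3, prior 2.46, prior SD 0.165), and p-values were adjusted by Benjamini-Hochberg over all 11131 genes (threshold 0.05). Differences are log2 differences of means with the SE of that fit. The procedure was tested on simulated data with independent genes, for VEGF-C against scrambled siRNA. No shift shared by the genes of an array was simulated, so this does not show how the p-values behave on these arrays. Promoter sequences are RefSeq's, GRCh38.p14.

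The subunits, the lists and the tests were chosen with earlier results of these data known. Besides subunits and targeted genes, the naming rule took from each of 8 lists the 3 smallest p with VEGF-C siRNA and the 3 largest differences with NRP-2 siRNA, the 5 genes closest to COPS4, and 2 neighbours on each side. NFE2L2 was named after its values were seen, to complete a count. Alternatives changed the probe set rule, the filter, the normalization, the fit, a covariate and the arrays used. The mean of the probe sets past the filter was added after seeing the data.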

Additional observations from a re-analysis of the deposited data

How the results depend on the processing

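COPS4 was chosen for its low level with NRP-2 siRNA on these arrays, so a kept direction is no independent support. Several alternatives, such as the other filters and the replicate block, left the difference itself unchanged and altered only its SE. The COPS4 level stayed lower under all 16 alternatives. When each array was left out in turn it ran from -1.59 to -1.34 against scrambled siRNA and from -1.52 to -1.23 against VEGF-C siRNA. Averaging every probe set of a gene moved it, to -0.75 against scrambled and -0.68 against VEGF-C siRNA, where the dim probe set of COPS4 enters by construction. With the mean of G2 and mitosis genes as a covariate it was -1.35 (SE 0.20). With the replicate block, the replicate number as a term, COPS4 was at -1.47 (SE 0.14) and 0 genes were called in each comparison. Same-numbered arrays deviated together with r of 0.119, 0.112 and 0.579 over genes for the 3 pairs of groups, but no label says that a number pairs them. With NRP-2 siRNA the other 8 subunits were 6 above and 2 below 0, and the split ran to 4 and 4 with averaged probe sets or without NRP-2 array 1 and to 7 and 1 without NRP-2 array 2. GPS1, COPS2, COPS6 and COPS7A each changed sign under at least 1 alternative.

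With VEGF-C siRNA no subunit was called under any alternative. Differences near 0 changed sign: COPS4 to 0.063 with the covariate and 0.0544 without VEGF-C array 1 (range -0.238 to 0.0544 over left-out arrays), GPS1 to -0.0655 with the covariate, COPS6 to 0.041 when all its probe sets were averaged, to 0.041 when those past the filter were, and to 0.00147 with equal medians. COPS7A ran from -0.0114 (without scrambled array 1) to 0.172 over left-out arrays, with -0.000435 without VEGF-C array 2. The cause of these sign changes was not tested. The median of the other 8 subunits ran over left-out arrays from -0.0377 to 0.18 for NRP-2 against scrambled, from -0.10 to 0.078 for NRP-2 against VEGF-C and from +0.02 to +0.10 for VEGF-C against scrambled siRNA. With no filter on low values 1 gene, NWD2, was called for VEGF-C against scrambled and 1, again NWD2, for NRP-2 against VEGF-C siRNA, among 19775 genes. Background correction could not be varied on these values.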
